A study of Mus musculus with 36 samples.

Results

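Sestrins and 6 subunits of AMP-activated protein kinase (AMPK) were examined as 9 genes in the gastrocnemius, the large calf muscle, of C57BL/6 male mice. Prkag2 was not among these genes. The genes were chosen by name: Sesn1, Sesn2 and Sesn3 encode the sestrins, Prkaa1 and Prkaa2 the catalytic alpha subunits of AMPK, Prkab1 and Prkab2 the scaffolding beta subunits, and Prkag1 and Prkag3 nucleotide-binding gamma subunits. All 9 were found among the 46893 genes of the count table, and all 9 reached the minimum mean count of 25 in each comparison between groups. Sesn3 did so in those of HFD-25%, HFD-50% and HFD-75% only through the other group, as did Sesn2 in those of HFD-50%. The 36 wild-type mice were 3 to 4 weeks old at the start and were kept for 12 weeks in 6 groups of 6. NFD-C mice were sedentary on the AIN93G diet, and HFD-C mice were sedentary on a high-fat diet. The other 4 groups ate the high-fat diet and ran voluntarily on wheels with programmable brakes. HFD-U mice ran without a limit, 8.3 km/day on average, and HFD-25%, HFD-50% and HFD-75% mice ran 2.1, 4.2 and 6.3 km/day. The only group on the AIN93G diet was sedentary, so running was not measured apart from the high-fat diet. Poly(A) RNA of each mouse was sequenced as 1 library.

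AMPK is a sensor of cellular energy: the gamma subunit binds adenine nucleotides, and the alpha subunit, once phosphorylated by an upstream kinase such as LKB1, turns on fuel uptake and oxidation and turns off growth. Sestrins are stress-induced proteins that bind the GATOR2 complex, lower mTORC1 activity when leucine is scarce, and associate with AMPK. p53 and FOXO factors induce Sesn1 and FOXO factors also induce Sesn3, whereas p53, ATF4 and NRF2 induce Sesn2. In fast skeletal muscle the alpha2, beta2 and gamma3 subunits form an AMPK complex that is activated by exercise.

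The sequences before the transcription start of the 3 sestrin genes are shown because the sestrins differ in the factors that induce them. They are the 250 bases upstream of the start, from RefSeq on GRCm38.p6, 5′ to 3′ on the gene's strand. RefSeq gives Sesn1 a pair of start sites, here named window 1 (chr10:41810324-41810573, plus strand) and window 2 (chr10:41887189-41887438, plus strand). The Sesn2 window is chr4:132510457-132510706 on the minus strand and the Sesn3 window is chr9:14276051-14276300 on the plus strand. Capitals mark the CCAAT box (read as ATTGG on the strand shown) and the forkhead-type motif TTGTTT.
Sesn1 window 1: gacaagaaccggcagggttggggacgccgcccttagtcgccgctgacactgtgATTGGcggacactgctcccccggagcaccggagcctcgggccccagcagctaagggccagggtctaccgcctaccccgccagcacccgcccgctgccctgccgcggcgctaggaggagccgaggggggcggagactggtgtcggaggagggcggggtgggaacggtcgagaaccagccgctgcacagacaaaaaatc
Sesn1 window 2: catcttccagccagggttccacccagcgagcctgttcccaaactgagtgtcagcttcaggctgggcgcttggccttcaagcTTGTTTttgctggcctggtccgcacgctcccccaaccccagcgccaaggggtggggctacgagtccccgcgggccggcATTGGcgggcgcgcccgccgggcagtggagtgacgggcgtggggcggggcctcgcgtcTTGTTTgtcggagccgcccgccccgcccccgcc
Sesn2: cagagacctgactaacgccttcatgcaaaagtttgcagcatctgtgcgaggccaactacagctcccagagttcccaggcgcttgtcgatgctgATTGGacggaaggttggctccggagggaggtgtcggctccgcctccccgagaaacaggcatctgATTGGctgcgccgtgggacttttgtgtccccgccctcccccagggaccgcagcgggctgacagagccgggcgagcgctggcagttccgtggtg
Sesn3: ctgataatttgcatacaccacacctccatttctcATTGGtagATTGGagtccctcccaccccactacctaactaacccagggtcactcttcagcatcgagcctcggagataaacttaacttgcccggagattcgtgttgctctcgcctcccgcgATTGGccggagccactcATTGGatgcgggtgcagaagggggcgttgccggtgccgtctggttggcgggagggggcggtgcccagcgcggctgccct
Both strands were searched. TTGTTT occurred 2 times in window 2 of Sesn1, with its first base at positions -169 and -33 from the start, and in no window of Sesn2 or Sesn3. Of the AMPK genes, Prkag1 alone held it, at -203. Of all 32851 promoter windows of 300 bases (250 before and 50 after the start), 20.7% held this short motif. The longer FOXO core GTAAACA, which shares no base with a TTGTTT match here, was found only 22 bases after the first start of Sesn1, and 3.65% of all windows held it. The CCAAT box occurred 1 time in each Sesn1 window, 2 times in Sesn2 and 4 times in Sesn3, and 37.4% of all windows held it. The GC box GGGCGG was present in windows of 7 of the 9 genes and in 35.7% of all windows, and the CRE core TGACG in those of Sesn1, Prkaa2 and Prkag1 and in 20.8%. No window of the 9 genes held the ATF-type motif TGATGCAA (0.895% of all windows), the E-box CACGTG (7.15%), the TATA box TATAAA (13.6%), or the palindromic glucocorticoid response element and the p53 response element (0.00913% each). These matches describe the letters of the windows, not binding.

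In the count table Sesn1 (gene 140742) lies on chromosome 10 from 41686570 to 41784432, plus strand, in the coordinates of the table, whose chromosome accessions are those of GRCm39. The opposite strand holds part of Armc2, with a mean of 6.39 counts per library against 609 for Sesn1. Prkaa1 likewise overlaps the antisense long noncoding RNA Gm15938, with a mean of 14.6 counts against 244, and the strand setting of the counting is not given in the sources used here. The other 7 genes overlap no other listed gene.

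Per length, the muscle-type alpha and beta subunits stood far above their counterparts, and Prkag3 stood above Prkag1 on average. Levels between genes are given as FPKM, as the mean over all 36 mice. FPKM are counts scaled by the deposited gene length and by the library total corrected for composition (TMM). Prkag3 stood at 64.0, Prkab2 at 60.7, Prkaa2 at 25.3 and Prkag1 at 24.3, while Prkab1 stood at 4.14 and Prkaa1 at 2.57. Prkaa2 made up 90.4% ± 2.33 (SD, n = 36) of the alpha subunit FPKM and Prkab2 93.1% ± 2.77 of the beta subunit FPKM. Among the sestrins Sesn1 led with 10.7 FPKM, against 0.756 for Sesn3 and 0.664 for Sesn2. Sesn2 and Sesn3 were thinly sampled, with 5 to 96 and 5 to 141 counts per library, so that counting error alone is large for them, whereas Sesn1 had 245 to 3439 counts.

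Libraries held 13060090 to 27981702 counts. The share of counts on rRNA-linked genes split them into 2 sets, at 2.01 to 3.81% in all NFD-C mice and in HFD-C mice 1 to 4, and at 0.404 to 1.02% in HFD-C mice 5 and 6 and in all runners. In each comparison of runners with HFD-C, running thus largely coincided with this split, and running and the split cannot be fully told apart. The fibre markers Ckm, Acta1, Myh4 and Tnnt3 were abundant in every library, so the tissue label held. Markers of slow fibres, which are plentiful in the adjoining soleus, varied. The summed level of 7 such genes ran from 34.0 to 3880 CPM (counts scaled by the TMM-corrected library total). In bulk tissue, fewer cells of a type and less RNA per cell cannot be told apart.

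Running groups had more Sesn1 mRNA on average than sedentary mice on the same diet at every distance, by an estimated 1.43- to 3.25-fold. Sesn1 encodes the main sestrin of skeletal muscle. The study itself reported Sesn1 among its genes with a significant dose-response curve in these libraries. Its quantitative PCR on the same RNA samples found no significant Sesn1 difference, which it put down to possible large variation between samples. The level in HFD-C ran from 16.1 CPM in the lowest mouse through a median of 22.7 to 26.8 in the highest, and in NFD-C from 13.9 through 22.3 to 28.4. In HFD-50% it ran from 30.8 through 41.9 to 199. All 6 HFD-50% mice lay above every HFD-C mouse. HFD-25% spanned 25.0 to 39.7 CPM with a median of 32.9, HFD-75% 21.3 to 54.1 with a median of 33.3, and HFD-U 15.1 to 41.8 with a median of 32.1. Of these groups, in that order, 4, 4 and 5 mice exceeded the highest HFD-C mouse, and the lowest HFD-U mouse was below the lowest HFD-C mouse.

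**Figure D1:**
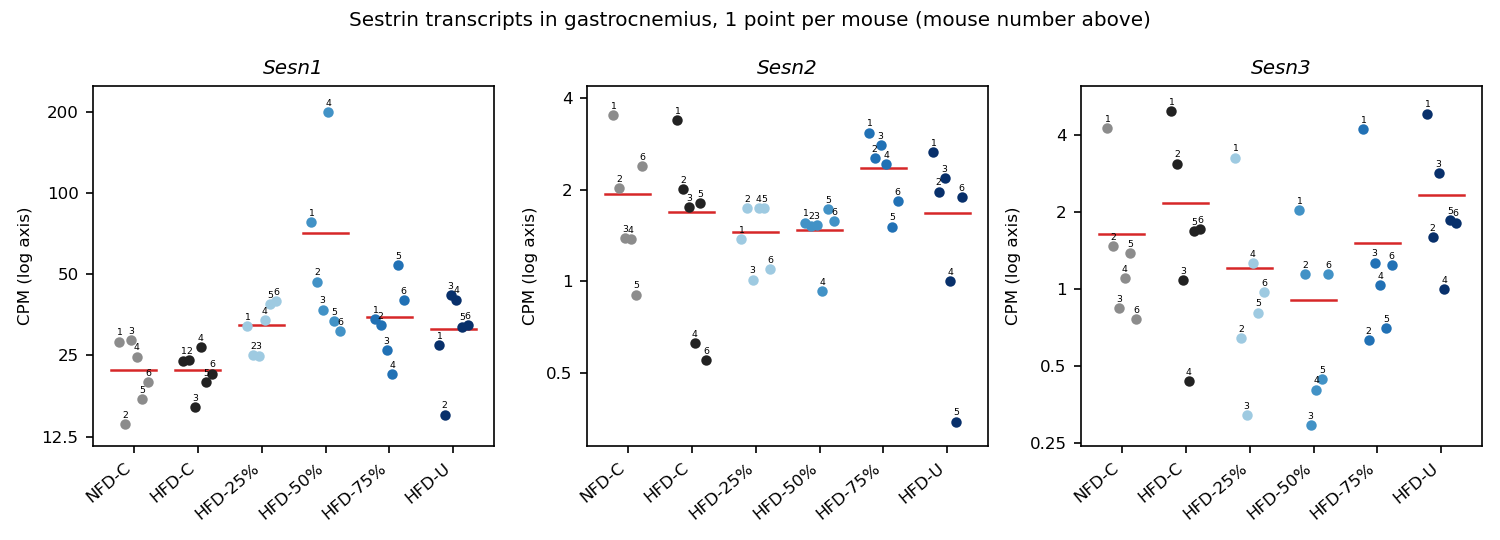
Sesn1, Sesn2 and Sesn3 in CPM (log axes) in each of 36 mice, by group. Each point is 1 mouse with its number, and red lines are group means. Sesn1 of HFD-50% mouse 4 stands at 199 CPM above all others, and mouse 1 is the highest of its group for Sesn3 in all 6 groups.

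Against HFD-C, Sesn1 rose by a log2 fold change of 0.56 ± 0.15 (SE; unadjusted p = 0.00201, edgeR quasi-likelihood F-test) in HFD-25%, and by 1.70 ± 0.40 (unadjusted p = 0.000717) in HFD-50%. Runners of HFD-75% had a rise of 0.66 ± 0.19 (unadjusted p = 0.00337), and HFD-U runners one of 0.52 ± 0.20 (unadjusted p = 0.0198). In 1 fit over all 36 mice the HFD-25% and HFD-U calls were lost (0.56, unadjusted p = 0.0887, and 0.51, unadjusted p = 0.116, edgeR). The HFD-U call was also lost among low rRNA-linked libraries alone (0.61, unadjusted p = 0.0743, edgeR). The 6 HFD-C mice serve as controls in each of these 4 comparisons, which are therefore not independent. The unadjusted limit of 0.05 is the one the study used for its gene lists. With Benjamini-Hochberg adjustment over all genes the p was 0.378, 0.139, 0.482 and 0.817, so none of these changes passed an adjusted limit of 0.05. For HFD-50% the adjusted p ranged from 0.00523 to 0.498 over 9 other settings. It passed with DESeq2 (0.0276), without a minimum count (0.0209) and in 1 fit over all 36 mice (0.00523). Between the sedentary groups no Sesn1 difference passed the limit: NFD-C against HFD-C was 0.01 ± 0.18 (unadjusted p = 0.964, edgeR), with an interval of 2 standard errors from -0.34 to 0.36.

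One mouse carried part of the size. Without HFD-50% mouse 4 the HFD-50% change was 1.04, and it kept an unadjusted p of at most 0.00228 whichever single mouse was left out. Where HFD-U was compared with HFD-C, the call was lost without HFD-U mouse 3 or 4. The same HFD-50% mouse had 100 CPM of Cdkn1a, the cell cycle inhibitor p21, where the other 5 had 14.4 to 33.5. It was also the highest of its group for Klf15, a glucocorticoid- and FOXO-responsive regulator of muscle amino acid use, with 180 CPM against 58.9 to 107. It led as well for the ubiquitin ligases Trim63 (2136 against 311 to 1023) and Fbxo32 (1995 against 375 to 1239), both hallmarks of muscle atrophy. Its part in the group mean is given by the value without it, and the reason for its state was not tested.

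Sesn3, which inhibits mTORC1 and is linked to insulin sensitivity, had its lowest levels in HFD-50%. It ran from 0.438 CPM through a median of 1.70 to 4.99 in HFD-C, from 0.294 through 0.796 to 2.04 in HFD-50%, and from 1.0 through 1.84 to 4.86 in HFD-U. In HFD-50%, 4 of the 6 mice lay within the HFD-C range. The HFD-50% value was -1.27 ± 0.55 on the log2 scale (unadjusted p = 0.0349, adjusted p = 0.424, edgeR). The mean count was 13.8 in HFD-50% and 47.0 in HFD-C, so Sesn3 reached the minimum of 25 only through the group where it was higher, and this value is a description. Without HFD-C mouse 1 it was not tested, and with no minimum count it was -1.28 (unadjusted p = 0.0211, edgeR). The other running groups, in order of distance, had changes of -0.86 ± 0.56, -0.53 ± 0.54 and 0.09 ± 0.48, with unadjusted p of 0.146, 0.342 and 0.849 (edgeR). Mean counts were 21.3 in HFD-25% and 24.7 in HFD-75%, so the values of these groups are descriptions too. The HFD-50% call was lost without HFD-50% mouse 3, 4 or 5 or HFD-C mouse 2, and with the rRNA-linked share added to the fit (-0.88, unadjusted p = 0.234, edgeR). Mouse 1 was the highest for Sesn3 in all 6 groups, at 2.04 to 4.99 CPM, while the other 30 mice had 0.294 to 3.10. It was also the highest in 4 of the 6 groups for Sesn2 and for Prkaa2, and the lowest in 3 of 6 for Prkag3. What the number marks is not given in the labels.

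Sesn2, the sestrin best known as a leucine sensor, passed the limit in no comparison. With a mean count of 23.0 in HFD-50%, Sesn2 reached the minimum in comparisons of that group only through the other group. Its median was lowest in HFD-50%, at 1.54 CPM, and highest in HFD-75%, at 2.48, and no mouse of any running group lay above the highest HFD-C mouse. The HFD-75% change of 0.46 had an interval of 2 standard errors from -0.29 to 1.22, so a rise of that size could not be told from none at this depth. Ordered by mean, the Sesn1 groups were HFD-50%, HFD-75%, HFD-25%, HFD-U, NFD-C and HFD-C. The Sesn3 order was HFD-U, HFD-C, NFD-C, HFD-75%, HFD-25% and HFD-50%. No neighbours in these orders, nor in that of Sesn2, differed by more than the larger of their SDs. Sesn1 was 80.9% ± 9.47 (SD, n = 6) of the summed sestrin FPKM in HFD-C and 93.5% ± 3.26 in HFD-50%.

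Of the 6 AMPK subunit genes examined only Prkag3 passed the unadjusted limit, and only in HFD-50% against HFD-C. Prkag3 encodes gamma3, the subunit typical of fast glycolytic fibres. It ran from 134 CPM through a median of 201 to 343 in HFD-C and from 74.9 through 146 to 179 in HFD-50%. The upper 3 HFD-C mice, at 228 CPM or more, lay above every HFD-50% mouse, and 2 HFD-50% mice lay below the HFD-C range. Prkag3 fell by 0.69 on the log2 scale (SE 0.27, unadjusted p = 0.0203, adjusted p = 0.370, edgeR). The call was lost without HFD-C mouse 3 or 5. At the other distances, shortest first, the values were -0.25 ± 0.28, -0.34 ± 0.27 and -0.23 ± 0.25, none past the limit (edgeR). The FPKM ratio of Prkag3 to Prkag1 was 3.25 ± 1.90 (SD, n = 6) in HFD-C and 1.92 ± 0.52 in HFD-50%.

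Slow fibre markers stood beside the Prkag3 value. Their summed level was 133 to 2320 CPM (median 1162) in HFD-C and 585 to 3880 (median 1641) in HFD-50%, with none of the 7 genes past the limit between these groups (edgeR). With this level as a covariate, an alternative chosen after the data were seen, the Prkag3 value was -0.34 (unadjusted p = 0.244, edgeR). In the same fit Sesn1 was 1.78 (unadjusted p = 0.000835) and Sesn3 -1.28 (unadjusted p = 0.0463).

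**Figure D2:**
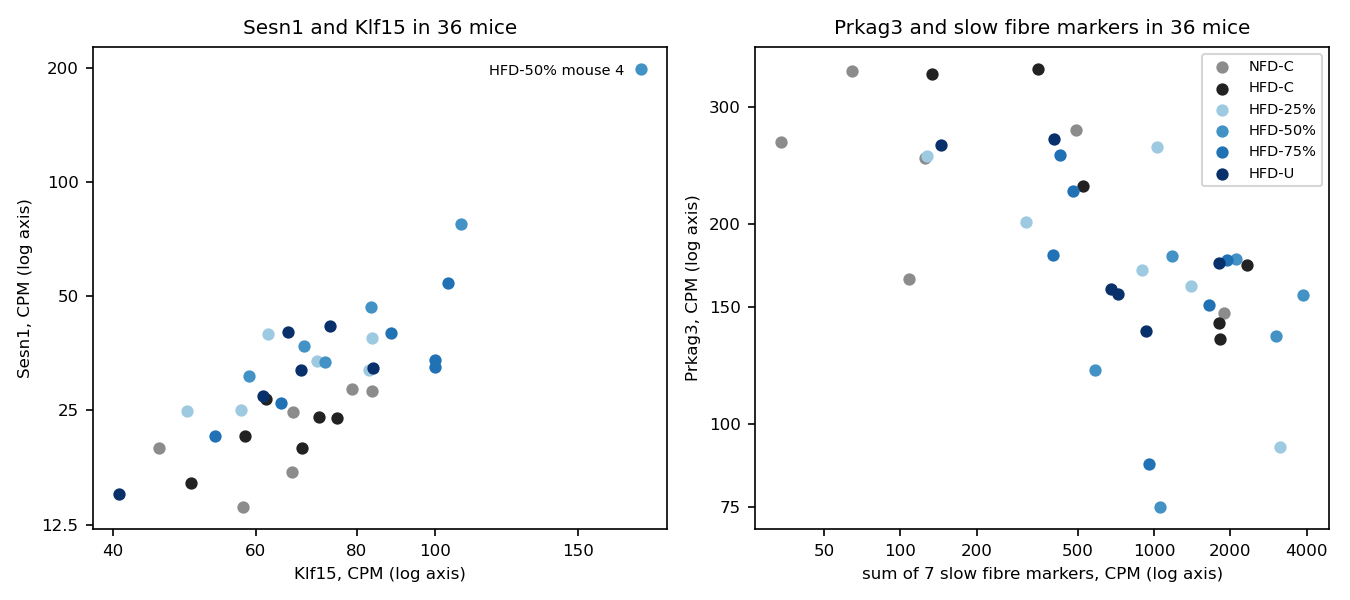
Left, Sesn1 against Klf15, and right, Prkag3 against the summed level of 7 slow fibre markers, both in CPM on log axes, 1 point per mouse and coloured by group. HFD-50% mouse 4 has the highest values of both Sesn1 (199) and Klf15 (180), and the HFD-50% mice lie between 74.9 and 179 CPM of Prkag3 and between 585 and 3880 CPM of the markers.

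Prkaa2, the main catalytic subunit of muscle, had 155, 202 and 293 CPM in the lowest, median and highest HFD-C mouse and 128, 150 and 250 in HFD-50%. In that group 4 of 6 mice lay below every HFD-C mouse, and the change of -0.32 ± 0.20 did not pass (unadjusted p = 0.126, edgeR). Prkab2, the muscle beta subunit, had a median of 318 CPM in HFD-C and 254 in HFD-50% with wide overlap, and its change was -0.17 ± 0.25. The lowest Prkab2 value, 117 CPM, was that of HFD-50% mouse 4, which also had the lowest Prkag3 value.

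The more widely expressed subunits passed the limit in no comparison. Prkaa1 stayed between 9.10 and 17.4 CPM, Prkab1 between 5.14 and 11.5 and Prkag1 between 29.4 and 52.3 over all 36 mice. Between HFD-50% and HFD-C the interval of 2 standard errors was -0.34 to 0.14 for Prkaa1, -0.20 to 0.54 for Prkab1 and -0.29 to 0.24 for Prkag1, on the log2 scale. Over the 4 running groups the 6 AMPK subunits had changes from -0.69 to 0.21.

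**Figure D3:**
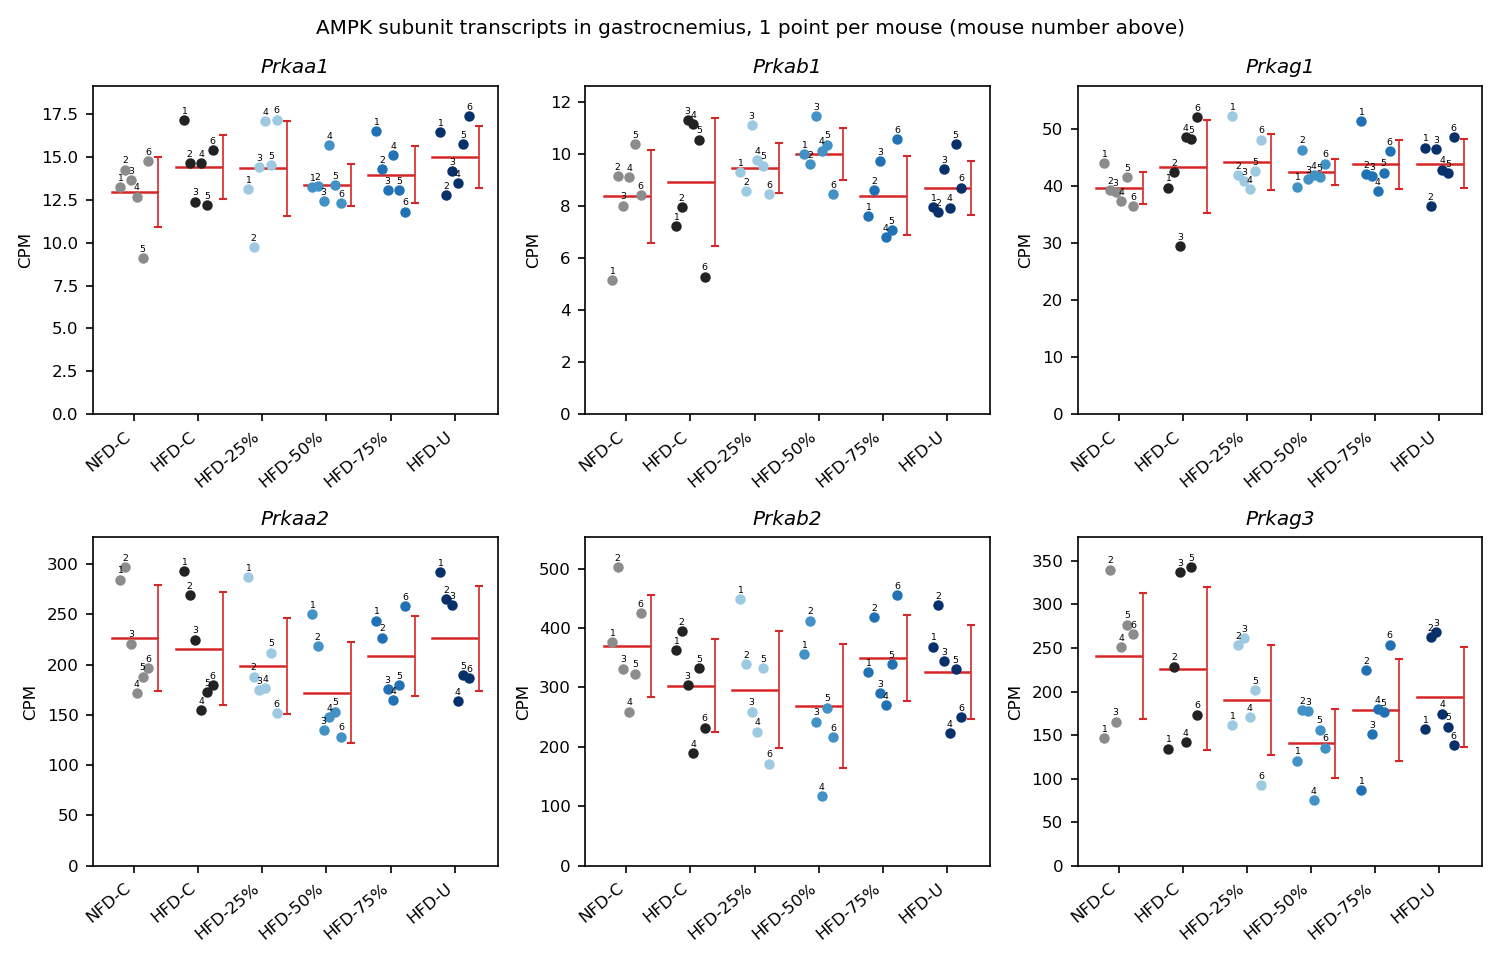
CPM of 6 AMPK subunit genes in each of 36 mice, by group (linear axes from 0). Each point is 1 mouse with its number, with group means as red lines and SDs as red bars. Prkag3 and Prkaa2 are lowest on average in HFD-50%, with overlap between groups.

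Counted over the 9 genes, 1 passed the unadjusted limit in HFD-25% against HFD-C, where 6.98% of all genes tested passed it (edgeR). In HFD-50% 3 passed, with Sesn3 in the test only through HFD-C, against 10.7% of all genes, in HFD-75% 1 against 5.47%, and in HFD-U 1 against 5.46%. No member passed in NFD-C against HFD-C, where 4.12% of all genes did. None of the 9 passed the adjusted limit in any of these comparisons, where 0.0082% of all genes did in HFD-25% and 0% in the others. The median change of the 9 was -0.17 in HFD-50%, beside 0.01 over all genes tested.

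**Figure D4:**
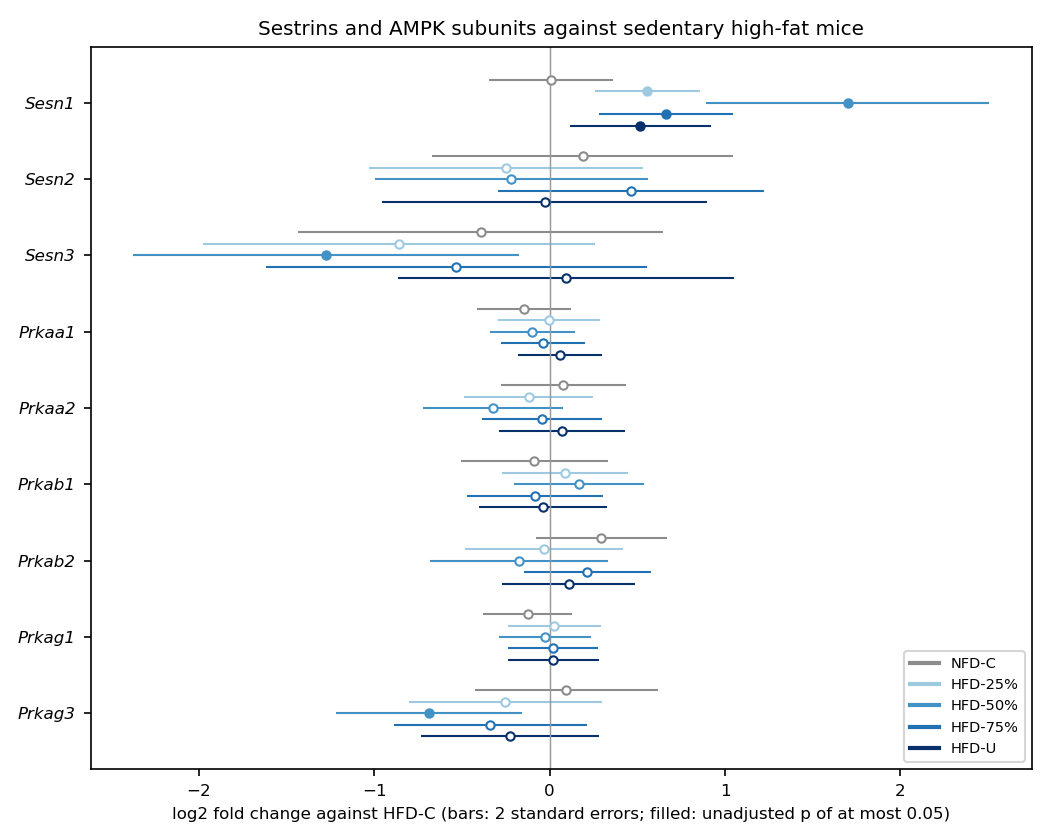
Log2 fold change of each member against HFD-C in each other group. Points are edgeR estimates, bars are 2 standard errors, and filled points have an unadjusted p of at most 0.05. Sesn1 is filled in the 4 running groups (0.52 to 1.70), while Sesn3 (-1.27) and Prkag3 (-0.69) are filled in HFD-50% only.

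HFD-50% was also set against HFD-U, a comparison that uses no sedentary mice. Sesn1 was higher in HFD-50% by 1.18 ± 0.43 (unadjusted p = 0.0145, adjusted p = 0.297, edgeR), and Sesn3 was at -1.37 ± 0.47 (unadjusted p = 0.0109, adjusted p = 0.288). Sesn3 reached the minimum only through HFD-U, with mean counts of 13.8 and 37.8, and it was not tested without HFD-U mouse 1 or 3. With no minimum count it was -1.39 (unadjusted p = 0.00514, edgeR), and with the rRNA-linked share added to the fit -0.55 (unadjusted p = 0.333, edgeR). Thus 2 of the 9 passed the unadjusted limit, beside 12.4% of all genes tested, and none passed the adjusted limit, beside 0.00844%. The ranges of both genes overlapped between these groups. Without HFD-50% mouse 4 Sesn1 was 0.52 (unadjusted p = 0.0673, edgeR), and with that share in the fit it was 0.27 (unadjusted p = 0.532). Prkag3 (-0.46, unadjusted p = 0.0514) and Prkaa2 (-0.40, unadjusted p = 0.0560) lay just outside the limit (edgeR). In this comparison 6 of the 7 slow fibre markers were higher in HFD-50%, from 1.26 for Myl3 to 2.09 for Tnni1. With their level as a covariate Sesn3 was -0.90 (unadjusted p = 0.139, edgeR) and Sesn1 1.36 (unadjusted p = 0.0149).

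A second-order curve in running distance was fitted to the 30 mice on the high-fat diet. Its p is for the linear and quadratic terms together. A bend was therefore not tested apart from a step between sedentary and running mice. The fitted Sesn1 curve was a bell with its turning point at 55.3% of the unrestricted distance (unadjusted p = 0.000806, adjusted p = 0.0739, edgeR). At that point the fitted level was 1.33 above that of sedentary mice on the log2 scale. The middle of the curve stood 1.08 above the line joining its ends. With 1 mouse left out at a time this height ran from 0.64 to 1.15 (unadjusted p at most 0.00224, edgeR). The fitted Sesn3 curve was a U with its turning point at 48.0% (unadjusted p = 0.0269, adjusted p = 0.330), and the mean Sesn3 count was under 25 in each restricted group. These 2 of the 9 passed the unadjusted limit, beside 12.2% of all genes tested, and none passed the adjusted limit, beside 0.683%. Over other settings the adjusted p of Sesn1 ran from 0.0248 to 0.267. Among the 24 running mice alone, where Sesn3 fell below the minimum count, Sesn1 was the 1 of 8 tested members that passed (unadjusted p = 0.0362, adjusted p = 0.546, edgeR), beside 8.49% of all genes at that limit and 0.0419% at the adjusted one. That call was lost without HFD-50% mouse 1 or 4, or without HFD-U mouse 1 or 2.

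The partners through which sestrins act on mTORC1 were compared between HFD-50% and HFD-C. Of 24 genes of the GATOR, Rag and Ragulator complexes and related partners, none rose and 1 fell at the unadjusted limit, which 10.7% of all genes tested passed in this comparison. It was Rragd (-0.51, unadjusted p = 0.0104, edgeR), a Rag GTPase of the lysosomal mTORC1 platform; the next, Lamtor3, was at -0.20 (unadjusted p = 0.0937). Of 15 genes of mTORC1 and its regulators 1 rose and 1 fell. These were Eif4ebp1 (1.08), a translational repressor that mTORC1 switches off, and Ddit4l (-0.54), an inhibitor of mTORC1. The Eif4ebp1 call rested on HFD-50% mouse 4: without it the value was 0.12 (unadjusted p = 0.400, edgeR), while Ddit4l kept -0.54. The medians of these lists were -0.01 and -0.07, beside 0.01 over all genes.

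Genes upstream and downstream of AMPK were counted in the same comparison, beside the 10.7% of all genes. Of 14 tested regulators, LKB1 and its partners among them, 1 passed: Cidea, a lipid droplet protein, at 1.71 (unadjusted p = 0.0105, edgeR). Cidea reached the minimum count only through HFD-50%, with a mean count of 55.5 there and 20.2 in HFD-C, so its value is a description. Flcn, whose product restrains AMPK, was at 0.29 (unadjusted p = 0.0531). Of 24 substrates and effectors 3 rose and none fell. The 2 with the smallest p were Lipe (0.65), the hormone-sensitive lipase, and Tbc1d4 (0.54), a brake on GLUT4 traffic that AMPK and Akt relieve, followed by Txnip (0.50). In HFD-75% 3 of the 24 rose, Lipe (0.35) and Txnip (0.38) among them, and 1 fell, beside 5.47% of all genes. In HFD-25% 1 rose, Lipe (0.60), and 1 fell, beside 6.98%. In HFD-U neither Lipe nor Txnip was among the genes that passed, where Tbc1d1 (-0.46) and Hdac5 (-0.22) fell, beside 5.46%. None of these passed the adjusted limit.

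Among the 7 transcription factors known to induce sestrins, Foxo1 and Foxo3 rose in HFD-50%, where 10.7% of all genes passed (edgeR). Foxo1 had 12.6, 35.96 and 49.2 CPM in the lowest, median and highest HFD-C mouse and 46.5, 77.1 and 137 in HFD-50%. Only the lowest HFD-50% mouse lay within the HFD-C range. The change was 1.33 for Foxo1 (unadjusted p = 0.000860, adjusted p = 0.139) and 0.51 for Foxo3 (unadjusted p = 0.0448). Against HFD-C, Foxo1 was raised as well by 0.98 in the 25% group and by 1.22 in the 75% group. It was also higher by 0.80 in NFD-C, the sedentary mice on the AIN93G diet. Sesn1 did not pass there, and a link between Foxo1 and Sesn1 was not tested. In the curve over 30 mice Foxo1 passed the adjusted limit (adjusted p = 0.0400, edgeR). Without HFD-50% mouse 4 the HFD-50% value was 1.13 for Foxo1 (unadjusted p = 0.00227) and 0.39 for Foxo3 (unadjusted p = 0.109), and Foxo1 missed the adjusted limit in the curve (adjusted p = 0.0646, edgeR).

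The known targets of those factors were uneven in HFD-50%, and several of the calls rested on mouse 4. Of 12 FOXO targets 4 rose and none fell: Trim63 (1.13) and Pdk4 (0.86), which spares glucose, had the smallest p, and Fbxo32 (0.89) and Klf15 (0.57) followed. Of 9 p53 targets 2 rose, Cdkn1a (1.48) and the stress gene Gadd45a (0.69). Of 8 tested ATF4 targets none rose and 1 fell, the amino acid transporter Slc7a5 (-0.84), followed by Chac1 at 0.53 (unadjusted p = 0.0729, edgeR). Of 8 tested NRF2 targets 2 rose and 1 fell, with Nqo1 (-0.36) and Hmox1 (1.39) at the smallest p. Of 10 glucocorticoid-responsive genes 4 rose and 1 fell, led by Fkbp5 (1.52), a chaperone that damps the receptor, and Zbtb16 (0.68). Medians were 0.38 for the FOXO list, 0.02 for p53, -0.10 for ATF4, 0.15 for NRF2 and 0.62 for the glucocorticoid list. Beside these counts stands 10.7% of all genes tested. Fkbp5 passed the adjusted limit in the curve over 30 mice (adjusted p = 0.0178, edgeR), also without HFD-50% mouse 4 (adjusted p = 0.0269). For HFD-50% mouse 4 the Fkbp5 level (190 CPM) had rank 3 in its group, and the Sesn1 level had rank 1.

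The lists were also counted without HFD-50% mouse 4, an alternative chosen after the data were seen, in which 9.84% of all genes passed. Of the 12 FOXO targets 1 then rose, Trim63 (0.61, unadjusted p = 0.0471, edgeR), and 1 fell, with a median of 0.07. Pdk4 (0.71), Fbxo32 (0.47) and Klf15 (0.28) no longer passed. Of 8 tested p53 targets Gadd45a (0.58) alone rose, and Cdkn1a stood at 0.67 (unadjusted p = 0.0695). No NRF2 target rose and 2 fell, with Nqo1 at -0.35 and Hmox1 at 0.69 (unadjusted p = 0.0743). Of the ATF4 targets 2 fell and none rose. Of the glucocorticoid-responsive genes 2 rose, Fkbp5 (1.54) and Zbtb16 (0.62), and 1 fell, and the median was -0.17 where it had been 0.62.

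In HFD-75%, too, 4 of the 12 FOXO targets rose, beside 5.47% of all genes, with Trim63 at 1.07 and Pdk4 at 0.76. None of the 12 passed in HFD-25% or HFD-U. Sesn1 passed the unadjusted limit in both with the main settings, and a link between these genes and Sesn1 was not tested. Differences between these groups in the list were not tested, apart from HFD-50% against HFD-U, where 5 of 12 were higher in HFD-50%, beside 12.4% of all genes. Without HFD-50% mouse 4, 3 were higher and 1 was lower there, beside 11.3% of all genes.

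Of the other cell types, endothelial markers were higher in restricted runners: at the 3 restricted distances, shortest first, 4, 3 and 2 of the 6 were higher than in HFD-C, and at the unrestricted distance none was (edgeR). All genes passed at 6.98%, 10.7%, 5.47% and 5.46% in that order. Cldn5, a tight junction gene, and Egfl7, a vascular factor, passed the adjusted limit in the curve over 30 mice (adjusted p of 0.0108 and 0.0365, edgeR), as they did without HFD-50% mouse 4. Without that mouse 5 of the 6 endothelial markers were higher in HFD-50% than in HFD-C, beside 9.84% of all genes. Their summed level was 143 to 248 CPM in HFD-C, 143 to 483 in HFD-25% and 155 to 364 in HFD-50%. Adipocyte, blood, Schwann cell and immune cell lists had no gene past the limit in HFD-50% against HFD-C. Of 5 fibroblast markers 1, Col1a1 (-0.99), was lower, and 2 were without HFD-50% mouse 4. In HFD-U, where Sesn1 passed as well, 3 of 5 adipocyte markers were lower than in HFD-C, namely Lep (-3.54), Adipoq (-2.24) and Cidec (-1.84). Whether these 3 reached the minimum count only through HFD-C was not checked, so their values are descriptions. Fabp4 (-0.07) and Cfd (-0.02) did not pass. The summed adipocyte level was 122 to 427 CPM (median 184) in HFD-U and 160 to 381 (median 182) in HFD-C. In HFD-U 2 of 4 immune and 1 of 5 blood markers were lower too. In HFD-75%, 3 of 5 fibroblast, 2 of 4 immune and 1 of 5 blood markers were lower, and in HFD-25% 1 of 5 adipocyte and 2 of 5 fibroblast markers. Defining adipocyte genes were at 0 in some mice: Plin1 in 7, Retn in 6, and Adipoq and Lep in 2 each of 36. The part of these cell types in the member values was not tested.

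The genes with levels most like each member were found over the 36 libraries and 12053 genes, by Pearson's r of log2 CPM. The libraries share groups, depth and composition, so these values are descriptions. For Sesn1 they were the zinc transporter Slc39a14 (0.85), Tango2 (0.83), Klf15 (0.83), Retreg1 (0.80) and Zfyve21 (0.79). Within groups, with group means removed, r with Klf15 was 0.85. Rank correlations (Spearman's rho) of these genes with Sesn1 were lower, from 0.61 for Retreg1 to 0.73 for Tango2, with Klf15 at 0.72. For Sesn3 they were Kif1b (0.88), Kif16b (0.85), Igf2r (0.85), Clasp1 (0.84) and Irgq (0.84), and for Sesn2, with lower values, LOC118568445 (0.71), Ahcyl2 (0.70), Cyrib (0.66), Cbx5 (0.65) and Selenoi (0.64).

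For the muscle AMPK subunits the values were higher. Prkaa2 was most like Abcc9 (0.94), Arcn1 (0.93), Kpna1 (0.93), Pafah1b1 (0.93) and Pcyt1a (0.93). Prkab2 was most like Phka1 (0.95) and Phkb (0.94), both subunits of phosphorylase kinase, then Setd7 (0.93), Alkbh5 (0.93) and Asb10 (0.92). The genes most like Prkag3 included Pla2g7 (0.90), Tpm1 (0.90), Rxrg (0.89) and Mylf-ps (0.89). Among the members themselves, Prkaa2 and Prkab2 had r of 0.78, Prkaa2 and Sesn3 0.72, and Sesn1 and Prkag3 -0.64, over the same 36 libraries. Mouse 1 was the highest of its group for Sesn3 in all 6 groups and for Prkaa2 in 4 of 6. The r without these mice was not computed.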

How the data were processed

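The authors deposited raw read counts per gene for 36 libraries, 1 per mouse. Per the submitters' processing notes, HISAT2 2.0.5, StringTie 1.3.3b and featureCounts 1.5.0-p3 were used and the build is named mm10, whereas the chromosome accessions in the table are those of GRCm39. Strand settings are not given in the sources used here. Samples were grouped by diet and treatment labels. Counts were analysed with edgeR 4.0.16 in R 4.3.3 (quasi-likelihood F-test, TMM scaling, genes kept at a mean count of 25 or more, Benjamini-Hochberg over all genes tested). Limits were an unadjusted p of 0.05, as the study used, and an adjusted p of 0.05. CPM and FPKM were computed from the deposited counts and gene lengths, with TMM-corrected library totals. Tests were run on simulated data first.

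The 9 members and the gene lists were chosen with earlier results of these data known. All members, the 2 smallest-p genes of every pathway list in HFD-50% against HFD-C and any list gene past the adjusted limit are named, and others that passed are named in places. One gene among those most like Prkag3 is not reported here. Alternatives were DESeq2 1.42.0, no minimum count, other size factors, the mouse number as a block, the rRNA-linked share as a covariate, library subsets, 1 fit over 36 mice and each mouse left out. The slow fibre level as a covariate and the lists without HFD-50% mouse 4 were added after the data were seen.

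Replicates of a group were not the same library: over 90 pairs the chi-square was 16.2 to 218 times its degrees of freedom. Same-numbered mice deviated together in HFD-U against HFD-C, where all 6 pairs had correlations over 0.1 (0.144 to 0.554). In the other comparisons at least 1 pair did not. The mice numbered 1 had correlations of 0.372 to 0.647 in every comparison. The labels do not say what the number marks. With total counts of 13060090 to 27981702 per library, the number of mice, not depth, limits the precision, except for Sesn2 and Sesn3.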

Additional observations from a re-analysis of the deposited data

Results flagged for a closer look

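Outlying mice were sought in 54 combinations of member and group, of which chance gives about 1 in 20. Sesn1 in HFD-50% was far highest in mouse 4, at 199 CPM with the next at 77.8. In the same mouse Sesn2 was far lowest of its group (0.926, next 1.53 CPM) and Prkaa1 far highest (15.7, next 13.4 CPM). Sesn3 was far highest in mouse 1 of NFD-C (4.26 CPM, next 1.47), of HFD-25% (3.28, next 1.27) and of HFD-75% (4.22, next 1.27). Prkaa1 was far lowest in NFD-C mouse 5, at 9.10 CPM with the next at 12.7.

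In the only direct comparison of running groups, HFD-50% with HFD-U, 2 members passed the unadjusted limit, beside 12.4% of all genes tested. The log2 difference was 1.18 for Sesn1 and -1.37 for Sesn3, both at an unadjusted p below the limit and an adjusted p above it (edgeR), with Sesn3 in the test only through HFD-U. Both calls were lost with the rRNA-linked share in the fit. That of Sesn1 was also lost without HFD-50% mouse 4, and that of Sesn3 with the slow fibre level as a covariate.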

How the results depend on the processing

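No member that passed the unadjusted limit turned its direction under any setting run, in 11 such results. Sesn1 passed in HFD-50% and HFD-75% against HFD-C and in the curve over 30 mice under each of these settings. The number of members past the limit moved by over 1.5 times as follows. In 1 fit over 36 mice it was 0 in HFD-25% and 0 in HFD-U. In HFD-U it was also 0 with the low rRNA-linked libraries alone, where HFD-C keeps 2 mice. In HFD-50% against HFD-U it was 4 with DESeq2, 4 with no minimum count, 0 with the rRNA-linked share and 1 with the slow fibre level as a covariate. In the curve over 30 mice it was 1 with mice 2 to 6 and 1 with the low rRNA-linked libraries. In these fits of the curve over 30 mice Sesn3 was under the minimum count and was not tested. In the curve over 24 mice it was 2 with no minimum count, 0 with the rRNA-linked share and 0 with mice 2 to 6. Fewer samples enter the subsets, and for the covariates the cause was not tested.

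With the mouse number as a replicate block, the count was 1 in NFD-C against HFD-C (Prkab2), 5 in HFD-50% against HFD-U and 0 in the curve over 24 mice. In HFD-U against HFD-C, where the pairing held, Sesn1 was 0.47 (unadjusted p = 0.0372, edgeR) and the count stayed at 1.

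Leaving out 1 mouse at a time gave 1 to 2 members in HFD-25%, 2 to 4 in HFD-50%, 1 to 2 in HFD-75%, 0 to 1 in HFD-U and 0 to 0 in NFD-C against HFD-C. It gave 1 to 4 in HFD-50% against HFD-U, 1 to 3 in the curve over 30 mice and 0 to 1 in that over 24. Depth limits Sesn2 and Sesn3, whose lowest libraries hold 5 counts. Of 28 list genes past the limit in HFD-50% against HFD-C, 10 no longer passed without HFD-50% mouse 4, and 1 turned its sign, Mt2 from 2.02 to -0.17.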
